A study of Rattus norvegicus with 8 samples.

Results

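The endoplasmic reticulum (ER) stress and protein folding genes are a list of 37 rat genes known for folding secreted proteins and for signalling when that folding fails. Probes were assigned to genes by RefSeq accession, and the brightest stood for the gene, provided that all arrays of some group read it well above background. By this rule 34 of the 37 genes had a probe, out of 15154 genes with a probe on the array, and all 34 passed the filter. Above background on all 8 arrays were 32 of them, and Ern1 and Ero1b were so on 7. No probe was matched to Manf, Edem1 or Derl2. The cultures were dissociated dorsal root ganglia, which hold the cell bodies of sensory neurons, from Wistar rats aged 0 to 5 days with male and female cells pooled. They were grown in serum-free medium with uridine and fluorodeoxyuridine, a drug that holds back dividing cells, and were then kept for 5 days with 100 ng/ml of a human protein. It was given as the double mutant P61S/R100E on 3 arrays, as the single mutant P61S on 3 and as the wild type on 2, and untreated cultures were not analysed here. Neurons and other cells were extracted together, so fewer cells of a type and less RNA per cell cannot be told apart, and since the origin of the replicates is not stated, p-values reflect the variation among these arrays, which may be technical.

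Proteins enter the ER through the translocon, fold with the help of chaperones and disulfide exchange enzymes, and are sent to the cytosol for degradation when they fail. When unfolded proteins build up, the sensors IRE1 (Ern1), PERK (Eif2ak3) and ATF6 start the unfolded protein response, which slows translation and raises transcription of chaperones, degradation factors and, through ATF4, of amino acid and redox genes. Sensory neurons make large amounts of secreted and membrane protein for their long axons and rely on this machinery. The arrays report RNA levels, and neither the splicing of Xbp1 RNA nor the phosphorylation of the sensors was measured.

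Levels below are log2 signals of a probe minus the log2 of the 75th percentile signal of its array, and a difference of 1 is a 2-fold difference. The 75th percentile signals lay between 3267 and 5269, 78.7% to 88.8% of an array's spots exceeded background clearly, and saturation affected 0 spots. Of 16 listed pan-neuronal markers 13 had a matched probe, and all 13 were above background on all 8 arrays. The same held for 21657 of all 30367 probes and for 10 of 10 fibroblast markers, so it does not tell neurons from other cells. Wild type replicate 2 stood apart from the other arrays, at 68.3 on a first principal component that held 35.9% of the variance, while the others lay between -27.9 and 19.1. All arrays were on 1 slide, where both wild type arrays occupied column 4 and no mutant array did, so slide column and protein cannot be told apart in comparisons with wild type. The mutants shared only column 2, with 1 array of each. Column 1 held only P61S arrays and column 3 only P61S/R100E arrays, so column and protein are hard to separate there too.

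No difference in the RNA level of a folding or stress gene passed the test in any comparison. For most of the genes the 95% interval lay within 1.5-fold in either direction. Like the p-values, these intervals reflect the variation among these arrays, which may be technical, and they make no allowance for slide column. In P61S/R100E against P61S cultures 0 of the 34 genes passed an adjusted p of 0.05 (limma, Benjamini-Hochberg adjustment over 23585 probes), and neither did any probe on the array (0%). The median difference of the 34 genes was 0.02, against -0.02 over all probes, and single genes lay between -0.32 (Sesn2) and 0.38 (Slc7a11). Before adjustment 2 genes had a p under 0.05, Slc7a11, the cystine carrier of the plasma membrane, and Hyou1, a large ER chaperone, both higher with P61S/R100E. That is 2 of 34 where 4.01% of all probes did the same. The 95% interval of the difference lay within 1.5-fold in either direction for 27 of the 34 genes and within 2-fold for 31.

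The comparison of P61S/R100E with wild type gave the same count, 0 of 34 genes and 0% of probes at an adjusted p of 0.05. Slc7a11 was the only gene with an unadjusted p under 0.05, which 5.04% of all probes had. The median difference was 0.00, against -0.06 over all probes, with single genes between -0.96 (Sesn2, an amino acid and oxidative stress sensor) and 0.37 (Slc7a11). Intervals lay within 1.5-fold for 25 genes and within 2-fold for 30. In P61S against wild type cultures 0 of 34 genes and 0% of probes passed, and the only gene with an unadjusted p under 0.05 was Ddit3, which encodes the stress transcription factor CHOP, where 2.07% of all probes had one. There the median difference was -0.05, against -0.04 over all probes, the range -0.64 (Sesn2) to 0.33 (Ddit3), and intervals lay within 1.5-fold for 24 genes and within 2-fold for 28. Each pair of comparisons shares the arrays of 1 group, so their values are not independent.

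**Figure D1:**
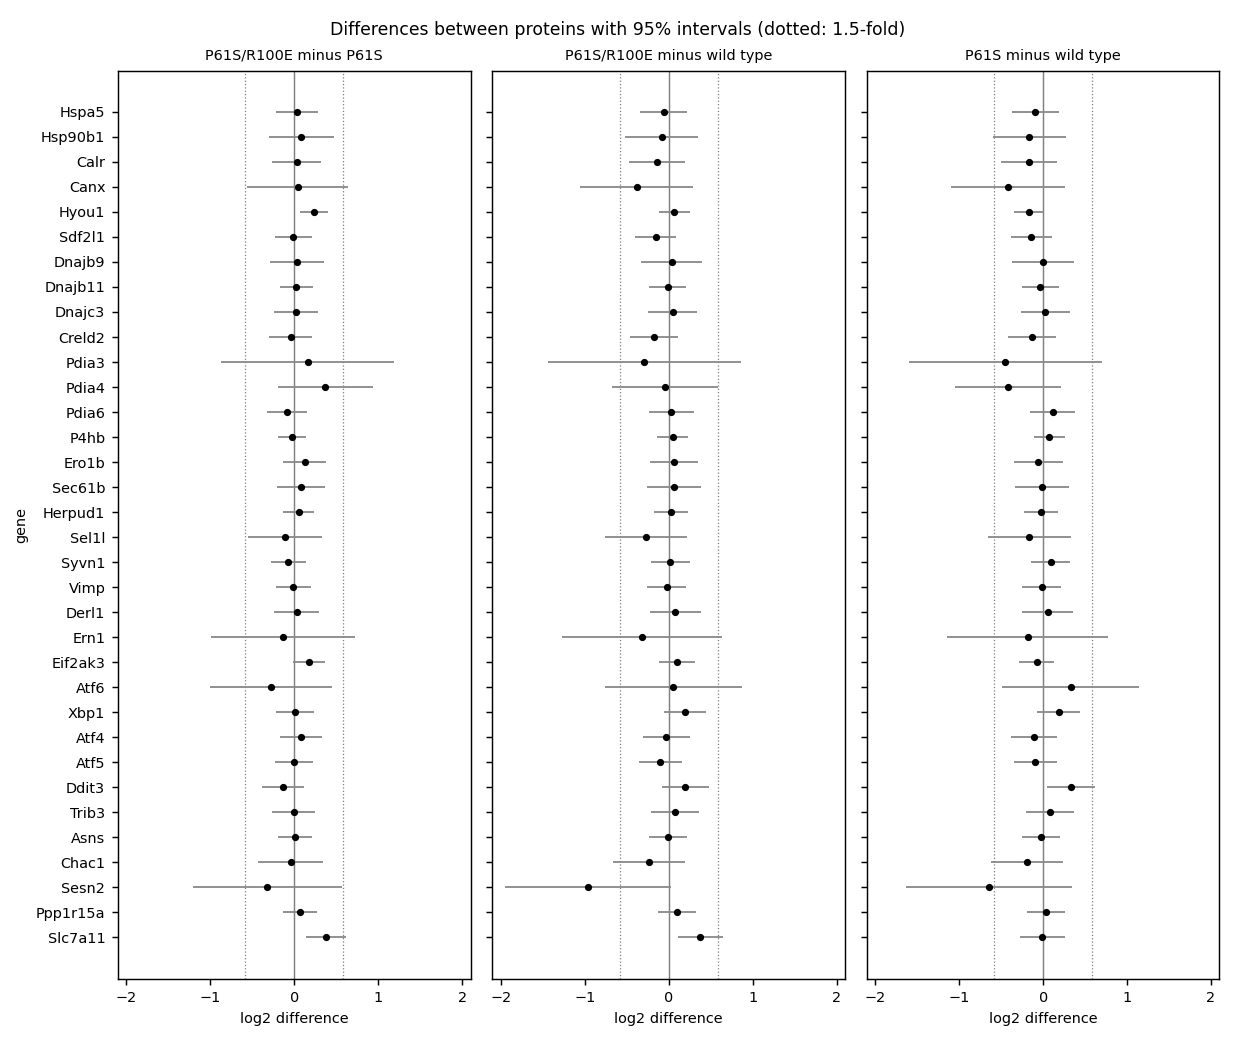
Differences of the 34 genes between proteins on the log2 scale (x axis), with 95% intervals from the limma fit as bars and dotted lines at 1.5-fold. Most bars cross 0 and stay between the dotted lines, and the widest belong to Pdia3, Sesn2, Ern1 and Atf6.

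**Figure D2:**
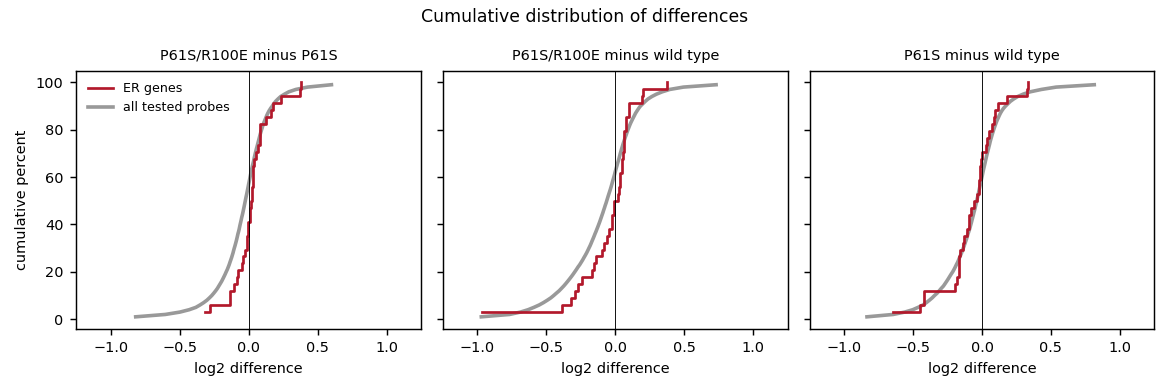
Cumulative percent (y axis) of log2 differences (x axis) for the 34 genes (red) and for all tested probes (grey) in each comparison. The medians were 0.02, 0.00 and -0.05 for the genes, against -0.02, -0.06 and -0.04 for all probes, from the left panel to the right one.

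Arrays of 2 groups can fail to overlap without any difference passing a test. Between P61S/R100E and P61S cultures the arrays of Hyou1, Eif2ak3 and Slc7a11 were all higher with the double mutant, 3 genes where 5.75% of all probes separated in that direction. Ddit3 was the only gene whose P61S/R100E arrays were all lower, where 8.23% of probes were. Against wild type, the P61S/R100E arrays of Hyou1, P4hb and Slc7a11 were all higher (5.86% of probes) and 0 genes were all lower (9.20%). Between P61S and wild type 4 genes were all higher in P61S arrays, P4hb, Syvn1, Xbp1 and Ddit3 (7.39% of probes), and 5 were all lower, Calr, Hyou1, Sdf2l1, Pdia4 and Eif2ak3 (9.23%).

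Chaperones had a median absolute difference of 0.03 between the 2 mutants, the smallest of the 5 roles. Hspa5, which encodes BiP, the main ER chaperone and the partner that holds the 3 sensors inactive, had levels of 3.89, 3.76 and 3.54 in P61S/R100E arrays, 3.69, 3.75 and 3.65 in P61S arrays, and 3.83 and 3.75 in wild type arrays. The groups overlapped, and the P61S/R100E arrays held both the highest and the lowest value. Its difference between P61S/R100E and P61S was 0.03 (95% interval -0.22 to 0.28), with the upper end at 1.22-fold higher. Against wild type it was -0.06 (-0.34 to 0.22) for P61S/R100E and -0.09 (-0.37 to 0.19) for P61S. Hsp90b1, the ER form of the HSP90 chaperone, had a mean of 1.98 ± 0.32 (SD, n = 3) in P61S/R100E arrays and of 1.90 ± 0.08 (n = 3) in P61S arrays, against 2.06 ± 0.15 (n = 2) in wild type arrays. The wide P61S/R100E spread came from replicate 3, at 1.62, with the other arrays of that group at 2.21 and 2.11.

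Hyou1, also called GRP170, exchanges nucleotide on BiP and holds unfolded proteins. It had levels of 1.55, 1.58 and 1.5 with P61S/R100E, 1.33, 1.31 and 1.30 with P61S, and 1.49 and 1.47 with wild type. The 3 groups did not overlap, with P61S lowest and P61S/R100E highest, and Hyou1 had the smallest spread within groups of the 34 genes (residual SD 0.03). P61S/R100E was above P61S by 0.23 ± 0.07 (SE; 95% interval 0.07 to 0.40), a 1.18-fold difference with an unadjusted p of 0.012 and an adjusted p of 0.999. P61S was below wild type by a difference of -0.17 (-0.35 to 0.02; unadjusted p 0.068). Within slide row 1 the difference between the mutants was 0.23, within row 2 it was 0.25, and within column 2, the only column with 2 groups, it was 0.28. With column as a covariate the layout of the arrays fixes the same value as within column 2, so it is no second check. Its unadjusted p was 0.078. In the same comparison 10 of 10 fibroblast markers had differences above 0 (median 0.16), where about 57% of all tested probes were below 0. Of 8 endothelial and mural markers 7 were below 0 (median -0.14), and the other marker lists had medians from -0.02 to 0.04. The part of any cell type in the values of Hyou1 was not tested.

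The calcium-binding lectins Calr and Canx hold glycoproteins while they fold. Calr was lower in all P61S arrays (2.07 to 2.14) than in wild type arrays (2.17 to 2.36), a difference of -0.17 (-0.50 to 0.17), while P61S/R100E arrays ran from 1.98 to 2.38. Canx lay between -2.96 and -2.54 on 7 arrays and at -1.83 on wild type replicate 2. Sdf2l1, a component of ER chaperone complexes, had levels of 0.58, 0.83 and 0.73 with P61S/R100E, 0.70, 0.79 and 0.69 with P61S, and 0.92 and 0.82 with wild type. P61S/R100E overlapped wild type by 1 array, and the difference was -0.15 (-0.40 to 0.09). Its other probe gave differences of -0.25 for P61S/R100E against wild type (unadjusted p 0.023) and -0.17 for P61S against wild type. Creld2, an ER protein induced by stress, had levels of -0.60, -0.82 and -0.72 with P61S/R100E, -0.58, -0.78 and -0.66 with P61S, and -0.67 and -0.42 with wild type. Wild type replicate 2 was above all other arrays. The co-chaperones Dnajb9, Dnajb11 and Dnajc3, which stimulate the ATPase of BiP, had differences between -0.04 and 0.05 in all 3 comparisons.

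Over the 10 chaperones, co-chaperones and lectins with a probe, the median difference was 0.03 for P61S/R100E against P61S, -0.07 for P61S/R100E against wild type and -0.14 for P61S against wild type. In the last comparison 8 of the 10 were below 0, where about 60% of all tested probes were. The first median was -0.04 without P61S/R100E replicate 1, and the second was 0.02 without P61S/R100E replicate 3 and 0.01 under median centring, so neither kept its sign. The median for P61S against wild type ran from -0.14 to -0.07 as each array was left out in turn. Their summed linear signals, in multiples of the 75th percentile signal, were 33.5, 30.6 and 27.2 in P61S/R100E arrays, 29.0, 29.8 and 28.7 in P61S arrays, and 32.1 and 31.2 in wild type arrays. The P61S sums were all below the wild type sums, and the P61S/R100E sums lay on both sides of them. These values were given no test of their own. Summed fibroblast markers were also lower in all P61S arrays (149 to 164) than in wild type arrays (165 on both), and their part in these values was not tested.

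Several of these genes carry, just upstream of their annotated start, the sequence through which ATF6 and XBP1 raise transcription in mammals. The ER stress element (CCAAT, any 9 bases, CCACG) or its shorter form, element II (ATTGG, any base, CCACG), was found on either strand in the 300-base promoter windows of 11 of the 31 listed genes with a RefSeq window (35.5%) and in 36 of all 27457 windows (0.131%). The 11 genes were Hspa5, Hsp90b1, Calr, Canx, Hyou1, Dnajb11, Dnajc3, Creld2, Ero1b, Herpud1 and Xbp1, and a match in letters is a description, not a site shown to be used. The stretches of 5 of them are printed because these genes are the standard readouts of the response or, for Hyou1, because its groups did not overlap. Capitals mark the match, with up to 15 bases on each side, written 5′ to 3′ on the strand of the gene (RefSeq, GRCr8).
Hspa5, chr3:38452958-38453006, plus strand: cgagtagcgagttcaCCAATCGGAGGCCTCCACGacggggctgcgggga
Calr, chr19:40213120-40213168, plus strand: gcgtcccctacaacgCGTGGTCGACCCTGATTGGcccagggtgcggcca
Hyou1, chr8:53602679-53602719, plus strand: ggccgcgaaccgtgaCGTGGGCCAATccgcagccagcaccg
Hyou1, chr8:53602779-53602819, plus strand: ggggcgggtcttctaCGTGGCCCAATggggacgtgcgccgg
Herpud1, chr19:10614806-10614846, minus strand: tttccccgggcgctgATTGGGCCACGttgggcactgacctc
Xbp1, chr14:84604543-84604591, plus strand: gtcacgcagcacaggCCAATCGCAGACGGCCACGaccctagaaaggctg
Hspa5 and Xbp1 hold the full element in the reading direction of the gene and Calr holds it on the opposite strand. Hyou1 holds element II, on the opposite strand, at 2 places, and the first overlaps the only match among these genes to the XBP1 and ATF6 element TGACGTGG, which 0.637% of all windows hold. The 11 genes with either element had median differences of 0.03 for P61S/R100E against P61S, -0.01 for P61S/R100E against wild type and -0.09 for P61S against wild type. The 18 measured genes with a window and neither element had medians of 0.00, 0.00 and -0.02 in the same comparisons. Without P61S/R100E replicate 1 the difference between the mutants had a median of -0.03 for the 11 genes, against 0.01 for the 18. For P61S against wild type the order of the 2 sets depended on the normalization. The medians were -0.04 for the 11 genes and -0.07 for the 18 under normexp with quantile normalization, and -0.13 and -0.03 under quantile normalization alone. Most of the 11 are also among the chaperones and lectins described above.

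**Figure D3:**
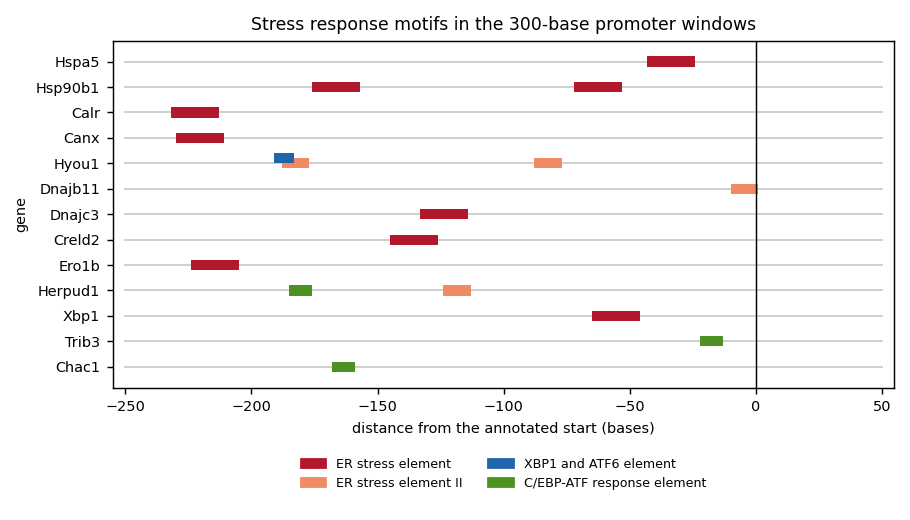
Positions of 4 stress response motifs in the promoter windows of 13 folding and stress genes, as distance in bases from the annotated start (x axis, black line at 0). The ER stress element and element II (red and orange) begin upstream of the start in 11 genes, and the match of Dnajb11, 11 bases long from -10, reaches the start. The C/EBP-ATF response element (green) lies upstream of Herpud1, Trib3 and Chac1.

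Among the disulfide exchange enzymes the spread between arrays was uneven. Pdia3, which pairs with the lectins to fold glycoproteins, ran from 0.28 (P61S/R100E replicate 3) to 1.90 (P61S/R100E replicate 1), so its difference of 0.16 between the mutants had an interval of -0.87 to 1.19. It had the largest residual SD of the 34 genes (0.62). Pdia4, another member of the family, had levels of -0.75, -1.44 and -1.68 with P61S/R100E, -1.71, -1.56 and -1.71 with P61S, and -1.05 and -1.43 with wild type. All P61S arrays were below both wild type arrays, with a difference of -0.42 (-1.05 to 0.22), and P61S/R100E replicate 1 was the highest array. Pdia6, which also limits IRE1 signalling, had levels of 3.44, 3.26 and 3.43 with P61S/R100E, 3.62, 3.34 and 3.42 with P61S, and 3.34 and 3.35 with wild type. The groups overlapped, and P61S minus wild type was 0.11 (-0.15 to 0.38). P4hb, the founding protein disulfide isomerase, was the steadiest by range, from 3.30 to 3.42 over the 8 arrays, with differences of -0.03, 0.05 and 0.07. Ero1b, an oxidase that recharges these enzymes, was near background at -7.33 to -6.95, with a difference of 0.12 (-0.14 to 0.38) between the mutants. Of its 2 spots on P61S replicate 3, one read 29.6 and the other 1053, and the brighter, marked as an outlier by the scanner software, was left out. In the authors' deposited values the difference between the mutants was -1.55 and P61S minus wild type was 1.74, where it was -0.06 here.

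Genes of the translocon and of ER-associated degradation had a median difference of 0.01 between the mutants, of 0.02 for P61S/R100E minus wild type and of -0.01 for P61S minus wild type. Herpud1, which organises the degradation complex in the ER membrane, had levels of 0.71, 0.79 and 0.86 with P61S/R100E, 0.73, 0.69 and 0.79 with P61S, and 0.78 and 0.74 with wild type. All 3 groups overlapped, and the interval of its difference between the mutants, -0.13 to 0.24, had its upper end at 1.18-fold higher. Syvn1, the ubiquitin ligase of that complex, was slightly higher in all P61S arrays (1.20 to 1.22) than in wild type arrays (1.10 to 1.14), by 0.09 (-0.14 to 0.33). Sel1l, the partner of Syvn1, lay between -3.50 and -3.20 on 7 arrays and at -2.74 on wild type replicate 2. Sec61b, a subunit of the translocon channel, and the degradation factors Derl1 and Vimp (now named Selenos) had differences between -0.03 and 0.08 in the 3 comparisons. Vimp also had an outlying spot, on P61S replicate 1, that was left out, and in the authors' deposited values it had differences of -0.36 between the mutants and 0.34 for P61S minus wild type.

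Among the sensors, Eif2ak3, whose product PERK phosphorylates eIF2 alpha to slow translation, had levels of -0.93, -0.79 and -0.93 with P61S/R100E, -1.04, -1.10 and -1.03 with P61S, and -0.93 and -1.03 with wild type. All P61S/R100E arrays were above all P61S arrays, by 0.18 (-0.01 to 0.37; unadjusted p 0.063, adjusted p 0.999), and P61S arrays were all below wild type arrays by a narrow margin. Ern1, the IRE1 sensor, was close to background, at -7.61, -7.55 and -7.23 with P61S/R100E, -7.42, -6.72 and -7.86 with P61S, and -7.68 and -6.61 with wild type. The spread within the P61S and wild type arrays exceeded the differences between group means, and an interval of -0.99 to 0.72 for the mutants leaves its difference poorly bounded. Atf6, the membrane-bound sensor that is cut to a transcription factor, had levels of -0.86, -1.46 and -0.75 with P61S/R100E, -0.47, -1.29 and -0.48 with P61S, and -1.40 and -0.75 with wild type. Each group held 1 low array, between -1.46 and -1.29, and the groups overlapped. Its second probe gave -0.07 between the mutants where the first gave -0.28, and -0.20 against 0.33 for P61S minus wild type, so the 2 probes differed in sign there.

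Transcription factors of the response showed one difference with an unadjusted p under 0.05. Xbp1 had levels of 1.41, 1.46 and 1.5 with P61S/R100E, 1.43, 1.45 and 1.46 with P61S, and 1.41 and 1.11 with wild type. Only wild type replicate 2 was low, and P61S/R100E minus wild type was 0.19 (-0.06 to 0.45), or 0.05 without that array. Atf4, the main effector of PERK, had levels of 3.82, 3.59 and 3.61 with P61S/R100E, 3.53, 3.74 and 3.50 with P61S, and 3.69 and 3.71 with wild type. The groups overlapped, and its difference between the mutants was 0.08 (-0.16 to 0.33). Atf5, a related factor, ran from 1.56 to 1.84, with wild type replicate 2 highest.

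Ddit3 had levels of 2.07, 2.02 and 2.02 with P61S/R100E, 2.17, 2.17 and 2.17 with P61S, and 2.03 and 1.65 with wild type. The P61S arrays were the highest and nearly identical, and the wild type arrays lay 0.38 apart. P61S minus wild type was 0.33 (0.05 to 0.61; unadjusted p 0.028, adjusted p 0.999), a 1.26-fold difference. Without wild type replicate 2 it was 0.14, and it was 0.14 within slide row 1 and 0.52 within row 2. P61S/R100E minus P61S was -0.13 (-0.39 to 0.12), with no overlap between the arrays, and P61S/R100E minus wild type was 0.20 (-0.09 to 0.48).

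**Figure D4:**
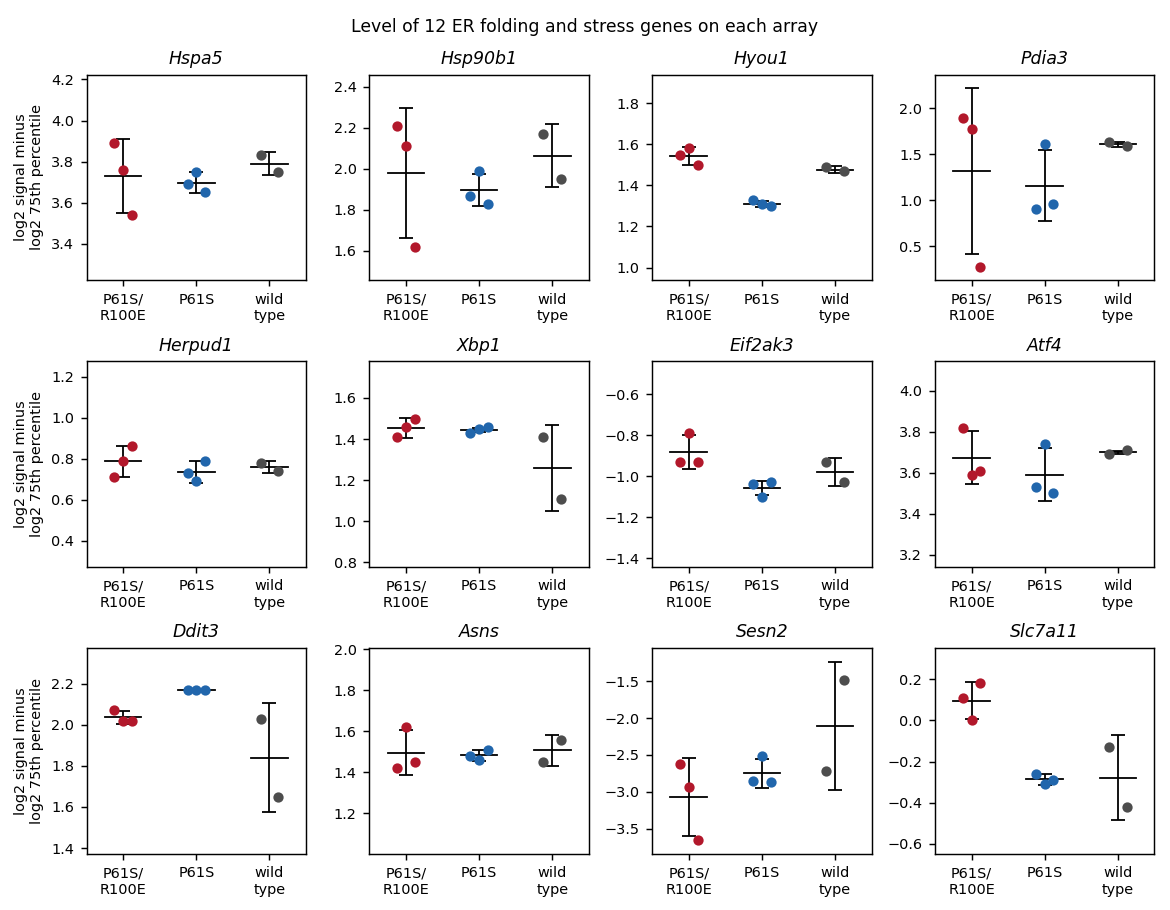
Levels of named folding and stress genes on each array (y axis, log2 signal minus log2 of the 75th percentile, scaled per panel), with points for arrays, lines for group means and bars for 1 SD, for P61S/R100E (red, n = 3), P61S (blue, n = 3) and wild type (grey, n = 2). Slc7a11, Hyou1 and Eif2ak3 show P61S/R100E points above all P61S points, and Ddit3, Xbp1 and Sesn2 show the wild type points far apart.

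Targets of the PERK and ATF4 branch had median differences of 0.00, 0.03 and -0.02, and Slc7a11 held the largest difference between the mutants. Slc7a11 imports cystine, the precursor of glutathione, in exchange for glutamate. Its levels were 0.11, 0.00 and 0.18 with P61S/R100E, -0.26, -0.31 and -0.29 with P61S, and -0.13 and -0.42 with wild type. All P61S/R100E arrays were above all arrays of the other groups, and P61S and wild type overlapped. P61S/R100E was above P61S by 0.38 ± 0.10 (SE; 95% interval 0.14 to 0.62), a 1.30-fold difference with an unadjusted p of 0.007 and an adjusted p of 0.933. It was above wild type by 0.37 (0.11 to 0.64; unadjusted p 0.013, adjusted p 0.746), and P61S minus wild type was -0.01 (-0.28 to 0.26).

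The difference in Slc7a11 between the mutants was 0.40 within slide row 1 and 0.38 within row 2. In column 2 alone, with 1 array of each mutant, it was 0.31. With column as a covariate the layout of the arrays fixes the same value, so it is no second check. Its unadjusted p was 0.148. Without wild type replicate 2 the difference between P61S/R100E and wild type was 0.23 (unadjusted p 0.078). A second, dimmer probe of Slc7a11 read -4.03, -4.84 and -4.39 with P61S/R100E, -4.78, -4.68 and -4.77 with P61S, and -4.72 and -4.47 with wild type. On that probe P61S/R100E replicate 2 was the lowest of the 8 arrays, the groups overlapped, and the difference between the mutants was 0.32 (unadjusted p 0.149). Slc3a2, whose product pairs with the cystine carrier in the membrane, and Nfe2l2, which encodes the redox factor NRF2, were looked up after the Slc7a11 values were seen. Slc3a2 had differences of -0.10 for P61S/R100E against P61S and -0.19 for P61S/R100E against wild type, and Nfe2l2 of 0.00 and 0.01.

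Sesn2 had levels of -2.62, -2.94 and -3.66 with P61S/R100E, -2.86, -2.52 and -2.87 with P61S, and -2.72 and -1.49 with wild type. P61S/R100E replicate 3 was the lowest and wild type replicate 2 the highest array, and the groups overlapped in each comparison. P61S/R100E minus wild type was -0.96 (-1.95 to 0.02; unadjusted p 0.054), and P61S minus wild type was -0.64 (-1.63 to 0.34). In each of these comparisons Sesn2 was the only one of the 34 genes past 1.5-fold, where 6.65% and 4.43% of all probes were. The first difference was -0.35 without wild type replicate 2 and -1.58 without wild type replicate 1. Within slide row 1 it was 0.10 and within row 2 it was -1.81.

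The groups overlapped for the other ATF4 targets. Asns, which makes asparagine, had 1.42, 1.62 and 1.45 with P61S/R100E, 1.48, 1.46 and 1.51 with P61S, and 1.45 and 1.56 with wild type. Its differences were 0.01 between the mutants, -0.01 for P61S/R100E against wild type and -0.02 for P61S against wild type. Trib3, a pseudokinase that CHOP and ATF4 switch on, had -1.80, -1.66 and -1.72 with P61S/R100E, -1.72, -1.66 and -1.78 with P61S, and -1.98 and -1.63 with wild type. Both its lowest and its highest array were wild type. Chac1, an enzyme that breaks down glutathione, had -1.88, -1.69 and -1.84 with P61S/R100E, -1.80, -1.60 and -1.88 with P61S, and -1.86 and -1.28 with wild type. Wild type replicate 2 alone was high. Ppp1r15a, also called GADD34, which restores translation, ran from 2.01 to 2.23, with a difference of 0.06 (-0.14 to 0.27) between the mutants.

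Herpud1, Trib3 and Chac1 hold the composite C/EBP-ATF response element (TGATGNAAN on either strand), through which ATF4 and CHOP act, in their promoter windows, 3 of 31 listed genes (9.68%) where 3.80% of all windows hold it. The Chac1 stretch is printed as the example of this branch, with the match, on the opposite strand, in capitals.
Chac1, chr3:126795948-126795986, plus strand: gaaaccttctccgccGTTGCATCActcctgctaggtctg
Between the mutants these 3 genes had differences of 0.05 (Herpud1), -0.01 (Trib3) and -0.04 (Chac1).

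**Figure D5:**
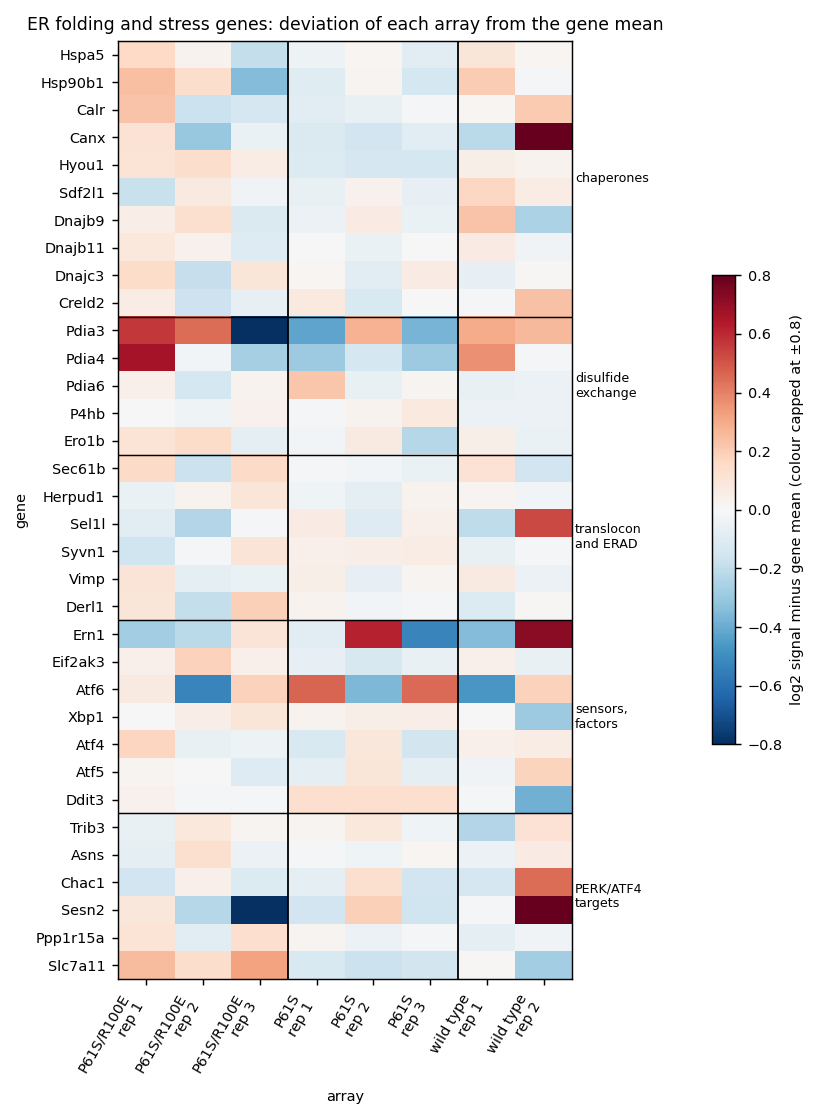
Deviation of each array (columns) from the mean of the gene over the 8 arrays (rows, grouped by role), in log2 units with colour capped at 0.8 in either direction. Wild type replicate 2 is the darkest red cell for Canx and Sesn2, and P61S/R100E replicate 3 the darkest blue one for Pdia3 and Sesn2.

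Within groups the median residual SD of the folding and stress genes was 0.12, against 0.18 over all tested probes, and 25 of the 34 lay below that overall median. The 2 sets are unlike, here and in the shares below. Each gene stands by its brightest probe, while all tested probes include dimmer ones. Wild type replicate 2 was the highest or lowest array for 12 of the 34 genes, where it was so for 51.7% of all probes. It was highest for Canx, Creld2, Sel1l, Ern1, Atf5, Trib3, Chac1 and Sesn2, and lowest for Dnajb9, Xbp1, Ddit3 and Slc7a11. P61S/R100E replicate 1 was the highest array for 10 genes, where it was so for 9.77% of all probes, and P61S/R100E replicate 2 was the lowest for 11, where it was so for 23.0%.

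A wider set of 133 genes of the same pathways, in lists of folding factors, degradation genes, sensors and death effectors, amino acid response genes and ER translocation, glycosylation and export genes, gave 119 with a tested probe. None passed an adjusted p of 0.05 in any comparison. Before adjustment 4 of the 119 had a p under 0.05 in P61S/R100E against P61S cultures, where 4.01% of all probes did. In P61S/R100E against wild type 1 did, where 5.04% of all probes did, and in P61S against wild type 0 did, where 2.07% did. The 4 genes, higher with P61S/R100E, were Cebpb, Pdia5, Atf3 and Spcs2, the last of which is named only to complete the count. The medians were 0.01, -0.01 and -0.05.

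The 2 genes of this set with the smallest p in each direction are named here for each comparison. Cebpb, a transcription factor that pairs with ATF4, was 0.35 higher with P61S/R100E than with P61S (1.66 to 1.98 with P61S/R100E, 1.37 to 1.48 with P61S, 1.65 to 1.67 with wild type). Pdia5, a disulfide isomerase, was 0.20 higher with P61S/R100E than with P61S and 0.17 higher than with wild type, and its P61S/R100E arrays (-2.02 to -1.97) were above all others (-2.20 to -2.13). Ddit4, a stress-induced inhibitor of mTOR, and Ero1a, an ER oxidase, were lower with P61S/R100E than with P61S by differences of -0.30 and -0.17. Atf3, a stress factor also induced by axon injury, was 0.23 higher with P61S/R100E than with wild type, at 3.54 to 3.69 with P61S/R100E, 3.40 to 3.45 with P61S and 3.33 to 3.48 with wild type. Ddost, a subunit of the glycosylation complex, and Atf6b, a relative of ATF6, had differences of -0.29 and -0.44 there. Between P61S and wild type, the cargo receptor Surf4 was 0.83 higher, with wild type arrays at 0.39 and 2.19, and Cebpg was 0.12 higher. Kdelr2, a receptor that returns chaperones to the ER, and the coat protein gene Sec31a had differences of -0.38 and -0.26. The smallest adjusted p among these genes was 0.746.

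Summed marker signals, in multiples of the 75th percentile signal, overlapped in every pair of groups for 5 of the 6 cell type lists. Pan-neuronal sums ran from 205 to 221 with P61S/R100E, 190 to 220 with P61S and 200 to 227 with wild type. Schwann cell sums ran from 85.6 to 96.6, 82.9 to 88.8 and 87.7 to 87.9 in the same order, and satellite glia sums from 36.5 to 44.5, 40.1 to 41.9 and 38.1 to 45.3. Fibroblast sums ran from 157 to 190 with P61S/R100E, 149 to 164 with P61S and 165 on both wild type arrays, so all P61S arrays were just below the wild type ones. Macrophage sums, from 4.82 to 6.10 over all arrays, and endothelial and mural sums, from 0.85 to 1.11, were low, with Mrc1, Cd163 and Tek below the filter. Of the 57 tested markers 0 passed an adjusted p of 0.05 in any comparison. Their part in the values above was not tested.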

How the data were processed

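RNA of 8 rat dorsal root ganglion cultures was read on one-colour arrays, and samples were grouped by the treatment in the labels. Per the labels, RNA was kept at an integrity number of 8.0 or more. Per the file headers, spots were read with Feature Extraction 10.7.3.1 (protocol GE1_107_Sep09, array design 028279, built on rn4), and the deposited intensity is background-subtracted. Here the log2 of each intensity minus the log2 75th percentile of its array was used. Replicate spots were averaged without outlier spots. A deposited log2 matrix (22018 probes, medians 9.82 to 10.33, not scaled between arrays) served as an alternative. Of 30367 probes, 17998 had a symbol by RefSeq accession, and 23585 were tested.

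Differences came from 1 limma fit of 3 group means (limma 3.58.1, R 4.3.3; 5 residual and 1.93 prior degrees of freedom), with Benjamini-Hochberg adjustment over all tested probes. The scripts were tested on simulated data. Alternatives were normexp (offset 50, on median signals, since mean signals were not in the files) with quantile normalization, quantile alone, median centring, the deposited values, other filters, replicate number, slide row and slide column as terms, fits of the compared groups alone, a variance trend, averaged probes, an adjusted p under 0.10 and each array left out. Values within slide rows and columns were added after seeing the data. Members and lists were chosen with earlier results of these data known. Named genes are 11 fixed members and, per comparison, 3 per direction by smallest p, and 2 of the wider pathway set. Other genes described by range, and Slc3a2 and Nfe2l2, fall outside that rule. Planned protein features were not analysed here. The number of arrays limits the precision.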

Additional observations from a re-analysis of the deposited data

How the results depend on the processing

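The count of folding and stress genes at an adjusted p under 0.05 was 0 in each comparison under every tested alternative other than leaving out an array, the looser adjusted p under 0.10 included. With each array left out in turn it stayed at 0 for P61S/R100E against P61S and for P61S against wild type, and ran from 0 to 1 for P61S/R100E against wild type. The 1 gene was Canx, without wild type replicate 1 (adjusted p 0.044), where limma called 1244 of all probes and the lone remaining wild type array was replicate 2, assumed to vary like the other groups. With the replicate number as a block, 0 genes passed in each comparison. Deviations of same-numbered arrays had correlations of -0.198 to 0.167. With so few arrays per group, these values cannot show whether same-numbered arrays shared a culture or a batch. Of 1200 values of single genes under the alternatives, 105 changed sign, among genes whose difference did not pass the test, and 113 moved by more than the spread between arrays. Part of the 1200 could not change. Other filters, fits of the compared groups alone, a variance trend and leaving out an array of a group not compared kept a gene's difference as it was. These counts therefore understate how far the remaining alternatives moved the values. Of 67 medians, some of which could not change either, 7 moved by more than 0.06, the SD between arrays. The median of the 34 genes for P61S against wild type, -0.05 as reported, was 0.01 under median centring and 0.04 with slide column as a covariate. That covariate extends a trend fitted on the columns of the mutants to the column of the wild type arrays. For P61S/R100E against P61S it was 0.02 as reported, -0.04 with slide column as a covariate and -0.01 without P61S/R100E replicate 1. Ern1 and Ero1b were close to background, which limits what their values can show, and the 2 wild type arrays limit each comparison with that group.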
